A study of Homo sapiens with 9 samples.

Results

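The genes described here serve the import, folding and turnover of mitochondrial proteins. They were all genes whose symbol starts with TIMM or TOMM and a digit, together with 18 named chaperone, motor, protease and prohibitin genes, on probe sets of the array that name 1 gene. Of 43 such genes in the platform annotation, 29 were measured on a probe set of their own, among 14207 genes in all. The other 14 lay only on probe sets that also name a neighbouring gene and are not reported. They were HSPA9, OMA1, PAM16, PHB2, TIMM13, TIMM23, TIMM23B, TIMM9, TOMM20, TOMM40L, TOMM5, TOMM6, TOMM70 and TRAP1. The mitochondrial HSP70 gene, the TIM23 channel gene and the main presequence receptor gene of the outer membrane are therefore not described.

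The cultures were of ARPE-19, a long-established line of human retinal pigment epithelium, grown to confluence with 10% serum and then held in medium with 1% albumin, per the labels. Total RNA was hybridised to 9 exon arrays, 3 from vehicle-treated cultures and 3 from each of 2 doses of cigarette smoke condensate, 100 and 250 µg/ml. The condensate was a commercial stock of 40 mg/ml in DMSO with 6% nicotine, diluted in culture medium. No source used here gives the duration of exposure, and the series title asks about mitochondrial dysfunction and the unfolded protein response under oxidative stress. Arrays carry the numbers 1 to 3 within a group, and no label says whether separate cultures stood behind them. The p-values below therefore reflect spread between arrays that may be technical.

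Most mitochondrial proteins are made in the cytosol as precursors. They cross the outer membrane through the TOM complex, and are then passed to the TIM23 complex for the matrix and inner membrane, or through small TIM chaperones to the TIM22 complex that inserts carrier proteins. A motor built on mitochondrial HSP70 pulls precursors into the matrix, where the HSPD1 and HSPE1 chaperonin folds them, and proteases such as LONP1, CLPXP and the AAA proteases of the inner membrane remove damaged or excess protein. Matrix chaperones and proteases are the classical targets of the mitochondrial unfolded protein response, and the retinal pigment epithelium depends on mitochondrial respiration.

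The stretches before the start sites of 6 of these genes are shown because they belong to the genes whose arrays set them apart below or that share a start region. They are from RefSeq on GRCh38.p14, 5′ to 3′ on the gene's own strand, cut where another annotated gene begins. HSPE1 and HSPD1 face away from each other, and the HSPE1 line holds the 104 bases between their starts (chr2:197500275-197500378, plus strand). The other lines are chr20:44960398-44960647 (minus strand) for TOMM34, chr7:22822850-22822956 (minus) for TOMM7, chr19:10928640-10928810 (plus) for TIMM29, chr17:996879-997128 (plus) for TIMM22 and chr16:4425790-4425867 (plus) for DNAJA3. Capitals mark matches to the NRF1 site, and in TIMM22 to the amino acid response element core TGATGNAA, each on either strand.
HSPE1: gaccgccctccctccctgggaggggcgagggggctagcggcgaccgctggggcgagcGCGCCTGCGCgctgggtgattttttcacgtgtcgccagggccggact
TOMM34: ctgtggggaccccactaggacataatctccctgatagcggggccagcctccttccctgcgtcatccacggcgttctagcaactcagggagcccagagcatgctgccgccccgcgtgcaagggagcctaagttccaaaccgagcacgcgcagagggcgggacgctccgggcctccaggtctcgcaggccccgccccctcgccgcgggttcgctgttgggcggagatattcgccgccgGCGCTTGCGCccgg
TOMM7: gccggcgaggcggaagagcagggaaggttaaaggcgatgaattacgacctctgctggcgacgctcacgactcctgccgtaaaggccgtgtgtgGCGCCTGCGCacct
TIMM29: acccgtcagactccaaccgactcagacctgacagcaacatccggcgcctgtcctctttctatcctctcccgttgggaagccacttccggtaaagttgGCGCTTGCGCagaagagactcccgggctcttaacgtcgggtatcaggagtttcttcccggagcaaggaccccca
TIMM22: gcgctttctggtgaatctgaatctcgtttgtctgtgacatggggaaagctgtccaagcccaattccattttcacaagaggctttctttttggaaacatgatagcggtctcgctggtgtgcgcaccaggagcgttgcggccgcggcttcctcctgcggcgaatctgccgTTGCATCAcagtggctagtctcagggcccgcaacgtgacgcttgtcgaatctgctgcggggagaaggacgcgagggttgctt
DNAJA3: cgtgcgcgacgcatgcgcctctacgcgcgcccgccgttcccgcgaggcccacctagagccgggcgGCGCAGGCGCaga

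Windows of 250 bases before to 50 bases after the start were held for 25 of the 29 genes, and none for CLPP, GRPEL1, TIMM8B and YME1L1. NRF1, a transcription factor of nuclear genes for mitochondrial proteins, has a site whose letters lay in the windows of 10 of these 25 genes (40%), against 6.98% of the 27305 genes in the table. The 27305 genes were not limited to those tested on the array, and the shares were not matched for base composition. The 10 were CLPX, DNAJA3, HSPD1, HSPE1, LONP1, SPG7, TIMM29, TOMM34, TOMM40 and TOMM7. HSPD1 and HSPE1 hold the same match, since their windows share 204 bases, so the count holds that site under both genes. The heat shock element core GAANNTTC lay in 1 of 25 (HSPD1, against 8.21% of all genes) and its other phase TTCNNGAA in 2 (HSPD1 and TIMM10, against 9.46%). These matches in HSPD1 lie in a second annotated window further inside the gene, and TTCNNGAA and GAANNTTC overlap there. TGATGNAA was found in TIMM22 alone (4.46% of all genes), and the antioxidant response element core TGACNNNGC in SPG7, TIMM10B, TIMM17B and TIMM21 (16% of 25, against 16.1%). A match is a description of letters and not of binding.

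Values are log2 summaries per gene. Their lower quartile over genes lay between 2.93 and 3.14 and their median between 4.52 and 4.72 on the 9 arrays. Of the 29 genes, 20 lay above the median on every array. TOMM20L lay below the lower quartile on every array, and HSPD1 and TOMM7 below the median. Among markers of the cell type, the keratin genes KRT8 and KRT18 lay above the median on every array. So did 3 of 12 measured pigment epithelium genes, TYRP1, MITF and OTX2. The visual cycle gene RPE65, BEST1 and TTR lay below the lower quartile on all 9. RLBP1, SERPINF1 and LRAT lay below the median on all 9, and PMEL, RDH5 and MERTK on either side of it. Below the lower quartile on all 9 were also all 4 endothelial markers and both measured fibroblast markers, DCN and LUM. Of 4 measured photoreceptor markers, RCVRN and SAG lay below the lower quartile on all 9, and none lay above the median on all. Of 3 measured Mueller glia markers, GLUL lay above the median on every array. Of 3 measured leukocyte markers PTPRC lay below the lower quartile, and CD3E and CD14 lay between it and the median on all 9 arrays. RNA was from whole cultures, so fewer cells with a transcript and less transcript per cell cannot be told apart.

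No gene of the 29 passed the test at either dose. With limma on all 9 arrays and Benjamini-Hochberg adjustment over all genes, 0 of 29 had an adjusted p under 0.05 at 100 µg/ml against vehicle, where 0.0633% of all genes did (0.0563% higher and 0.00704% lower). At 250 µg/ml 0 of 29 did, where 0.549% of all genes did (0.387% higher and 0.162% lower). At an unadjusted p under 0.05 there were 4 at 100 µg/ml (13.8%, against 14.6% of all genes) and 3 at 250 µg/ml (10.3%, against 16.6%). The median change was 0.09 log2 units at 100 µg/ml and 0.08 at 250 µg/ml, beside -0.05 and -0.04 over all genes. It was -0.05 and -0.09 without vehicle array 1. The mean was higher than with vehicle for 19 of 29 genes at 100 µg/ml (40.8% of all genes) and for 17 at 250 µg/ml (42.7%). Without vehicle array 1 it was higher for 12 (39.4% of all genes) and 13 (40.2%). Both comparisons share the 3 vehicle arrays.

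**Figure D1:**
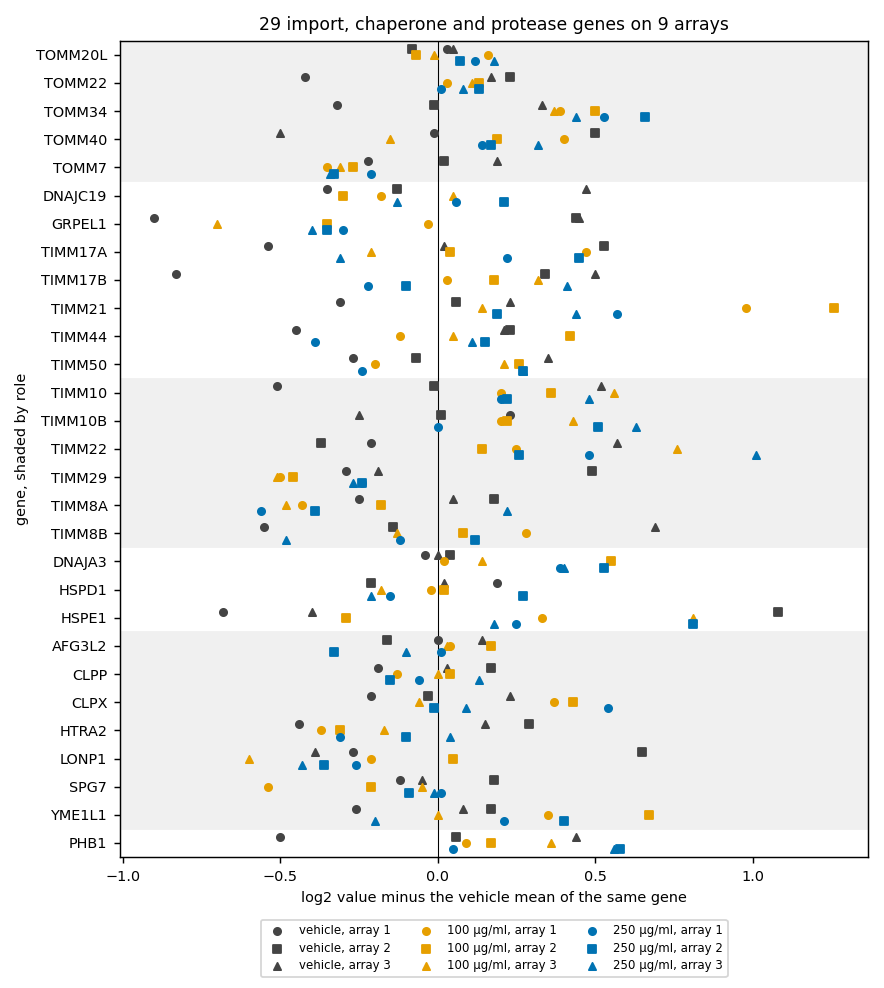
Each row is 1 of the 29 genes, shaded by role, and the horizontal axis gives its log2 value on an array minus its mean over the 3 vehicle arrays. Grey, orange and blue points are vehicle, 100 and 250 µg/ml, and circles, squares and triangles are arrays 1, 2 and 3. The grey circles of vehicle array 1 are the lowest of the 9 points in 18 genes, and for most genes the 3 colours overlap.

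The intervals put bounds on these changes. The 95% interval of the change lay within 2-fold either way, that is between -1 and 1 on the log2 scale, for 25 of 29 genes at 100 µg/ml (82.9% of all genes) and for 25 at 250 µg/ml (80.7%). The exceptions were GRPEL1, HSPE1, TIMM21 and TIMM22 at both doses. In simulated data with the spread of these arrays, limma called 53% of genes changed by 2-fold at 100 µg/ml and 50% at 250 µg/ml. The changed genes were drawn from all genes, with noise independent between genes. A shift shared by many genes on 1 array was not simulated. These shares are therefore not those of the 29 genes, whose spread with vehicle was wider. Smaller changes were not simulated.

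**Figure D2:**
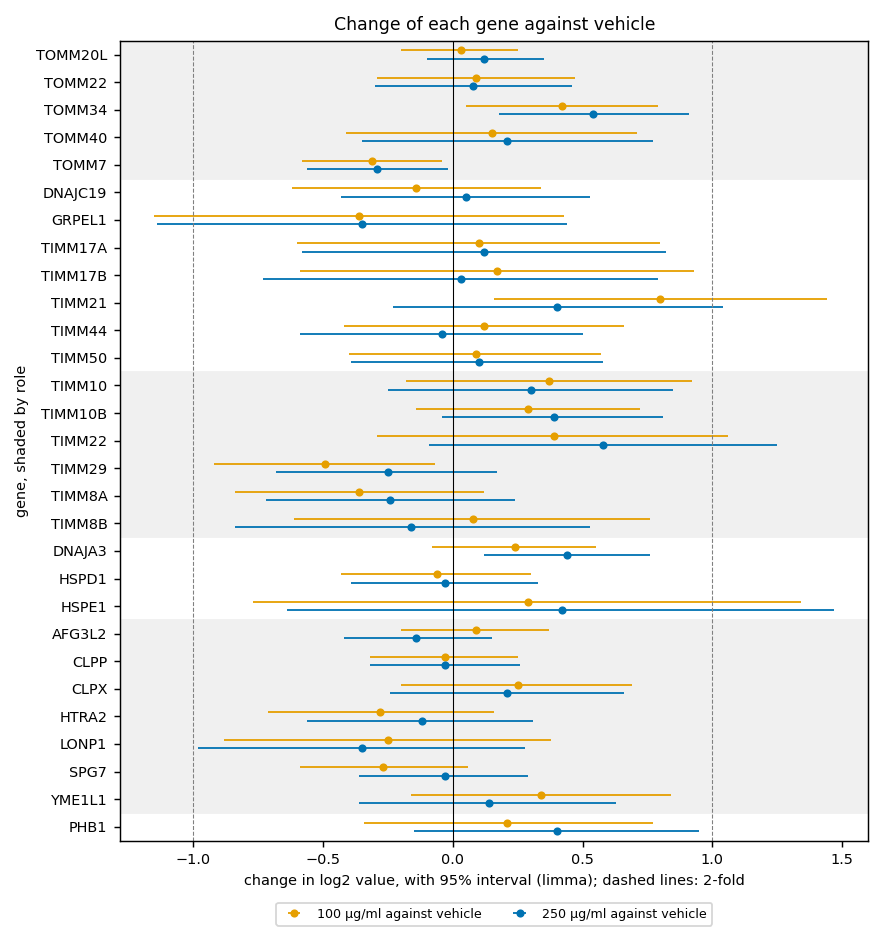
Points are the change in log2 value of each gene against vehicle at 100 µg/ml (orange) and 250 µg/ml (blue), bars are 95% intervals from limma (3 arrays per group), and dashed lines mark 2-fold. The intervals of TOMM34 and TOMM7 leave out 0 at both doses, those of TIMM21 and TIMM29 at 100 µg/ml and that of DNAJA3 at 250 µg/ml, and none of these passed after adjustment over all genes.

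Of the genes with TOMM symbols, TOMM34 stood highest against vehicle at both doses. TOMM34 encodes a cytosolic co-chaperone that binds HSP70, HSP90 and precursor proteins. Its log2 values were 6.97, 7.28 and 7.62 with vehicle, 7.68, 7.79 and 7.66 at 100 µg/ml, and 7.82, 7.95 and 7.73 at 250 µg/ml. Every treated array lay above every vehicle array, with the highest vehicle array 0.04 log2 units below the lowest treated one. TOMM34 was the only 1 of the 29 genes that was higher without overlap at 100 µg/ml, where 6.41% of all genes were. At 250 µg/ml 3 of 29 were, TOMM34, DNAJA3 and TOMM20L, beside 8.61% of all genes.

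For TOMM34 the change was 0.42 ± 0.16 (SE, n = 3 per group, 1.34-fold, limma adjusted p = 0.3) at 100 µg/ml and 0.54 ± 0.16 (1.46-fold, adjusted p = 0.16) at 250 µg/ml. The second passed in 1 of the alternatives, without vehicle array 3 (0.71, adjusted p = 0.046), and over all alternatives its adjusted p ran from 0.046 to 0.44. With 1 array left out the changes ran from 0.26 to 0.58 and from 0.38 to 0.71. The lowest, 0.26 and 0.38, were those without vehicle array 1 (limma adjusted p = 0.41 and 0.23).

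TOMM7, a small subunit that stabilises the TOM complex, stood lower. Another probe set that names TOMM7 also names C4orf46 and was not used. Whether the probe set used lies at the TOMM7 locus whose start is shown above was not tested, so its values are uncertain as those of TOMM7. Its values were 4.07, 4.31 and 4.48 with vehicle, 3.94, 4.02 and 3.98 at 100 µg/ml, and 4.08, 3.96 and 3.95 at 250 µg/ml. At 100 µg/ml all 3 arrays lay below the vehicle arrays, and at 250 µg/ml array 1 lay just above the lowest vehicle array. The change was -0.31 ± 0.12 (adjusted p = 0.3) at 100 µg/ml and -0.29 ± 0.12 (adjusted p = 0.27) at 250 µg/ml. Leaving out 1 array gave -0.41 to -0.21 and -0.40 to -0.19. TOMM7 and TIMM29 were the 2 of 29 genes lower without overlap at 100 µg/ml, where 11.9% of all genes were, and 0 of 29 were at 250 µg/ml, where 14.3% were.

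The remaining genes with TOMM symbols were TOMM40, TOMM22 and TOMM20L. TOMM40, the channel of the outer membrane, had vehicle values of 4.41, 4.92 and 3.92, and every treated array (from 4.27 up to 4.82) lay within that range. Its changes of 0.15 ± 0.24 and 0.21 ± 0.24 were -0.10 and -0.04 without vehicle array 3, and 0.40 and 0.46 without vehicle array 2. The central receptor gene TOMM22 had 5.93, 6.58 and 6.52 with vehicle and 6.36 to 6.48 on the 6 treated arrays. Its changes of 0.09 ± 0.17 and 0.08 ± 0.17 (adjusted p = 0.84 and 0.83) were -0.12 and -0.13 without vehicle array 1, and 0.21 and 0.20 without vehicle array 2. TOMM20L, a paralogue of TOMM20, lay between 2.47 and 2.73 on all 9 arrays, and a level that low does not tell whether it was expressed.

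Of the presequence translocase and import motor, TIMM21 had the largest difference of the 29 genes at 100 µg/ml. TIMM21 connects the TIM23 complex with the TOM complex and with respiratory chain subunits. Its values were 6.11, 6.48 and 6.65 with vehicle, 7.40, 7.68 and 6.56 at 100 µg/ml, and 6.99, 6.61 and 6.86 at 250 µg/ml. Arrays 1 and 2 at 100 µg/ml stood above all others, and array 3 lay within the vehicle range. The change was 0.80 ± 0.28 (1.74-fold, adjusted p = 0.27) at 100 µg/ml, 1.13 without array 3 of that dose and 0.56 without array 2. At 250 µg/ml it was 0.40 ± 0.28 (adjusted p = 0.49), and 0.25 to 0.52 with 1 array left out. Without vehicle array 1 the change at 100 µg/ml was 0.64, smaller in size than that of GRPEL1.

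GRPEL1, the nucleotide exchange factor of mitochondrial HSP70, had vehicle values of 6.13, 7.47 and 7.48. Its treated values were 7.0, 6.68 and 6.33 at 100 µg/ml and 6.73, 6.68 and 6.63 at 250 µg/ml. Vehicle array 1 lay below and vehicle arrays 2 and 3 above all 6 treated arrays, and the change kept its sign with any single array left out. The changes were -0.36 ± 0.34 and -0.35 ± 0.34 (adjusted p = 0.66 and 0.64), and -0.81 and -0.79 without vehicle array 1. They were -0.14 and -0.13 without vehicle array 2, and -0.13 and -0.12 without vehicle array 3. Over the alternatives the adjusted p ran from 0.16 to 0.92 and from 0.099 to 0.91.

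TIMM17A and TIMM17B encode channel partners of TIM23, and both had their lowest value on vehicle array 1. TIMM17B had 3.96 on vehicle array 1 against 5.13 and 5.29 on the others, and 4.57 to 5.20 on the treated arrays. TIMM17A had 6.20 against 7.27 and 6.76, and 6.43 to 7.21 on the treated arrays. Their changes at 100 µg/ml were 0.17 ± 0.33 and 0.10 ± 0.31, and -0.25 and -0.18 without vehicle array 1. At 250 µg/ml they were 0.03 ± 0.33 and 0.12 ± 0.31, and -0.39 and -0.15 without it. The highest values with 1 array left out were 0.42 and 0.36 at 100 µg/ml, and 0.27 and 0.38 at 250 µg/ml.

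The presequence receptor gene TIMM50 had changes of 0.09 ± 0.21 and 0.10 ± 0.21, and TIMM44, which tethers the motor to the channel, 0.12 ± 0.24 and -0.04 ± 0.24. Without vehicle array 1 those of TIMM50 were -0.05 and -0.04 and those of TIMM44 -0.11 and -0.27. At the other end were 0.26 and 0.27 for TIMM50 without vehicle array 3, and for TIMM44 0.24 without vehicle array 2 and 0.13 without array 1 at 250 µg/ml. The J-protein gene DNAJC19 had 5.78, 6.00 and 6.60 with vehicle and 5.83 to 6.34 on the treated arrays, with changes of -0.14 ± 0.21 and 0.05 ± 0.21. They were 0.09 and 0.28 without vehicle array 3, and -0.32 and -0.13 without vehicle array 1. In this role 0 of 7 measured genes passed at either dose, beside 0.0633% of all genes at 100 µg/ml and 0.549% at 250 µg/ml.

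In the carrier pathway, TIMM22 had the largest difference of the 29 genes at 250 µg/ml. TIMM22 forms the channel that inserts carrier proteins into the inner membrane. Its values were 6.87, 6.71 and 7.65 with vehicle, 7.33, 7.22 and 7.84 at 100 µg/ml, and 7.56, 7.34 and 8.09 at 250 µg/ml. Array 3 was the highest array of every group, and within each array number the order was vehicle, 100 and 250 µg/ml. The change was 0.39 ± 0.29 (adjusted p = 0.56) at 100 µg/ml and 0.58 ± 0.29 (1.5-fold, adjusted p = 0.36) at 250 µg/ml, where the adjusted p ranged from 0.057 with the array number as a block to 0.63 over the alternatives. The labels do not say that the numbers pair the arrays with the vehicle arrays. Over all genes, deviations of same-numbered arrays from vehicle ones correlated at only -0.14 to 0.26, so the order within numbers is not a matched series. With 1 array left out, the change of TIMM22 ran from 0.20 to 0.67 at 100 µg/ml and from 0.37 to 0.87 at 250 µg/ml. Without vehicle array 1 it was 0.48 at 250 µg/ml, smaller in size than that of GRPEL1.

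TIMM29, a subunit of the TIM22 complex, had 4.27, 5.05 and 4.37 with vehicle, 4.06, 4.10 and 4.05 at 100 µg/ml, and 4.32, 4.32 and 4.29 at 250 µg/ml. The treated arrays of each dose lay close together, those of 100 µg/ml below all others and those of 250 µg/ml within the range of the vehicle arrays. The change was -0.49 ± 0.19 (1.41-fold, adjusted p = 0.29) at 100 µg/ml and -0.25 ± 0.19 (adjusted p = 0.52) at 250 µg/ml. Without vehicle array 2, the high one, the changes were -0.25 and -0.01, and without vehicle array 1 -0.64 and -0.40.

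The small TIM genes, whose products escort hydrophobic precursors across the intermembrane space, did not go 1 way. TIMM10 had 4.30, 4.80 and 5.33 with vehicle and 5.01 to 5.37 on the treated arrays, with changes of 0.37 ± 0.24 and 0.30 ± 0.24 that were 0.12 and 0.05 without vehicle array 1 and 0.63 and 0.56 without vehicle array 3. TIMM10B had changes of 0.29 ± 0.19 and 0.39 ± 0.19 (adjusted p = 0.5 and 0.34), which ran from 0.16 to 0.40 and from 0.26 to 0.57 with 1 array left out. Lower on average was TIMM8A, the gene of an inherited deafness and dystonia syndrome, with -0.36 ± 0.21 and -0.24 ± 0.21. The first ran from -0.48 to -0.27, and the second was -0.47 without array 3 and -0.08 without array 1 at 250 µg/ml. TIMM8B had 0.08 ± 0.30 and -0.16 ± 0.30, with vehicle values from 7.65 to 8.89, and changes of -0.20 and -0.43 without vehicle array 1 and 0.42 and 0.19 without vehicle array 3.

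Among the matrix chaperones, DNAJA3 had the most even vehicle values of the 29 genes. DNAJA3 is a J-protein partner of mitochondrial HSP70. Its values were 6.52, 6.60 and 6.56 with vehicle, 6.58, 7.11 and 6.70 at 100 µg/ml, and 6.95, 7.09 and 6.96 at 250 µg/ml. The 3 arrays of 250 µg/ml lay above all vehicle arrays, and at 100 µg/ml array 1 lay among them. The change was 0.24 ± 0.14 (adjusted p = 0.47) at 100 µg/ml and 0.44 ± 0.14 (1.35-fold, 95% interval 0.12 to 0.76, adjusted p = 0.18) at 250 µg/ml. Leaving out single arrays gave 0.39 to 0.46 for the second, and its adjusted p from 0.12 to 0.48 over the alternatives. At 100 µg/ml the change was 0.08 without array 2 and 0.34 without array 1 of that dose.

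HSPD1 and HSPE1, the chaperonin and its lid, share the stretch between their starts shown above. The order of their arrays was opposite with vehicle and at 100 µg/ml. HSPE1 had 3.85, 5.61 and 4.13 with vehicle, 4.86, 4.24 and 5.34 at 100 µg/ml, and 4.78, 5.34 and 4.71 at 250 µg/ml. HSPD1 had 4.47, 4.07 and 4.30, then 4.26, 4.30 and 4.10, then 4.13, 4.55 and 4.07. The vehicle array with the highest HSPE1 value had the lowest HSPD1 value of its group, and vehicle array 1 the reverse. At 100 µg/ml array 3 was highest and array 2 lowest for HSPE1, and the reverse held for HSPD1. Only at 250 µg/ml was the order the same for both genes, with array 2 highest and array 3 lowest. HSPE1 had the widest vehicle spread of the 29 genes, an SD of 0.94.

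For HSPE1 the changes were 0.29 ± 0.46 and 0.42 ± 0.46 (adjusted p = 0.81 and 0.68), with 95% intervals of -0.77 to 1.34 and -0.64 to 1.47. Without vehicle array 2 they were 0.83 and 0.96, and without vehicle array 1 -0.05 and 0.08. For HSPD1 they were -0.06 ± 0.16 and -0.03 ± 0.16 (adjusted p = 0.89 and 0.94), and 0.03 and 0.06 without vehicle array 1. Their lowest values with 1 array left out were -0.16 and -0.18. RefSeq lists 22 pseudogenes of HSPD1 and 28 of HSPE1, and whether the probe sets tell them from the gene was not tested. The level of HSPD1, below the array median, is therefore uncertain as a level of the chaperonin transcript.

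The prohibitin gene PHB1, whose product forms a ring-shaped scaffold around inner membrane proteases, had 6.99, 7.55 and 7.93 with vehicle. It had 7.58, 7.66 and 7.85 at 100 µg/ml and 7.54, 8.07 and 8.05 at 250 µg/ml, so the highest values were those of arrays 2 and 3 at 250 µg/ml. Its changes were 0.21 ± 0.24 and 0.40 ± 0.24 (adjusted p = 0.72 and 0.44), and -0.04 and 0.15 without vehicle array 1 and 0.43 and 0.62 without vehicle array 3. RefSeq lists 21 pseudogenes of PHB1. Fewer are listed for DNAJC19 (9), TOMM22 (6), TOMM40 (4), GRPEL1 (3) and TIMM8B (2). AFG3L2, TIMM17B, TIMM8A and YME1L1 have 1 each. Whether the probe sets tell these from the genes was not tested.

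**Figure D3:**
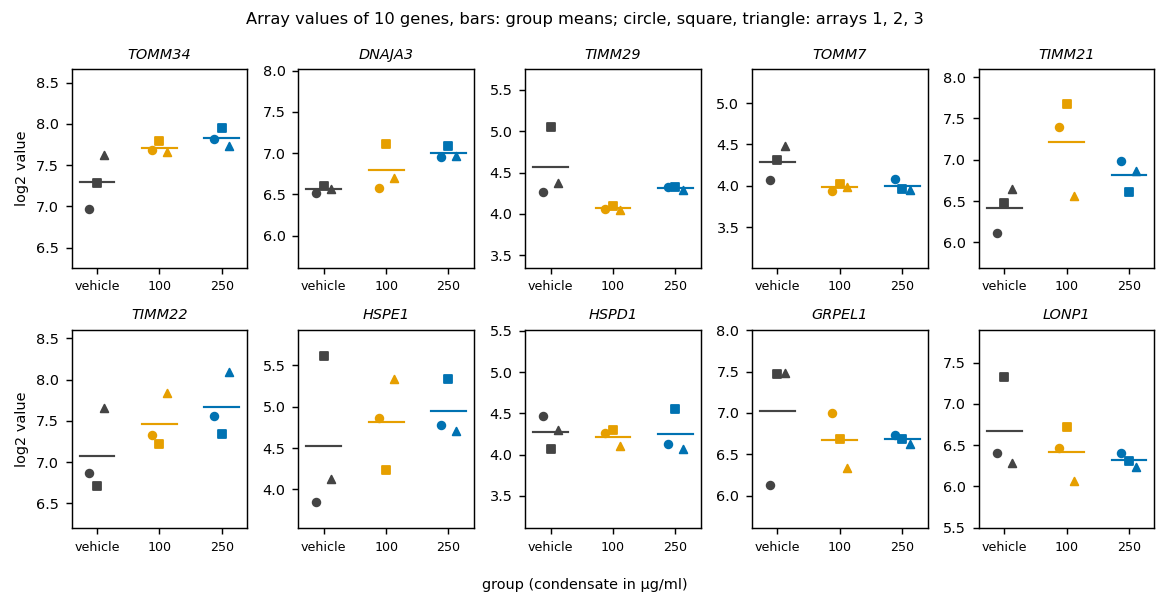
Log2 values of 10 genes on each array, by group, with bars at the group means and circles, squares and triangles for arrays 1, 2 and 3; each panel spans the same range of log2 units. The treated arrays of TOMM34 lie above its vehicle arrays, those of DNAJA3 do so at 250 µg/ml, and HSPE1, GRPEL1 and LONP1 spread more widely among vehicle arrays than at 250 µg/ml.

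The proteases had a median change of -0.03 at both doses over 7 measured genes. Of these 0 passed, beside 0.0633% of all genes at 100 µg/ml and 0.549% at 250 µg/ml. LONP1, the ATP-dependent protease of the matrix, had 6.40, 7.32 and 6.28 with vehicle, 6.46, 6.72 and 6.07 at 100 µg/ml, and 6.41, 6.31 and 6.24 at 250 µg/ml. Vehicle array 2 lay above the other 8 arrays. The changes were -0.25 ± 0.28 and -0.35 ± 0.28 (adjusted p = 0.7 and 0.55), and 0.08 and -0.02 without that array. Without vehicle array 3 they were -0.45 and -0.54.

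CLPP and CLPX form the other soluble matrix protease. The peptidase gene CLPP spanned 6.89 to 7.25 with vehicle, and its treated arrays lay between 6.93 and 7.21. Both changes were -0.03 ± 0.13, with 95% intervals of -0.32 to 0.25 and -0.32 to 0.26, among the narrowest of the 29 genes, and both were 0.05 without vehicle array 2 and -0.13 without vehicle array 1. The unfoldase gene CLPX had changes of 0.25 ± 0.20 and 0.21 ± 0.20 (adjusted p = 0.58 and 0.62), which ran from 0.14 to 0.40 and from 0.04 to 0.33 with 1 array left out.

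Of the inner membrane proteases, YME1L1, which faces the intermembrane space and degrades TIMM17A under stress, had 8.58, 9.01 and 8.92 with vehicle, 9.19, 9.51 and 8.84 at 100 µg/ml, and 9.05, 9.24 and 8.64 at 250 µg/ml. In both treated groups array 3 lay within the vehicle range and arrays 1 and 2 above it. The changes were 0.34 ± 0.22 and 0.14 ± 0.22 (adjusted p = 0.49 and 0.78), and 0.18 and 0.01 without array 2 of the dose and 0.51 and 0.31 without array 3 of the dose. AFG3L2 and SPG7 are the subunits of the protease facing the matrix. AFG3L2 had 0.09 ± 0.12 and -0.14 ± 0.12, with 0.01 to 0.16 and -0.21 to -0.04 when 1 array was left out. SPG7 had -0.27 ± 0.14 and -0.03 ± 0.14, with -0.38 to -0.13 and -0.09 to 0.05. HTRA2, a serine protease of the intermembrane space, had -0.28 ± 0.19 and -0.12 ± 0.19 (adjusted p = 0.52 and 0.78), which were -0.50 and -0.34 without vehicle array 1, and -0.14 and 0.02 without vehicle array 2.

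The doses were first compared directly without pairing the arrays. At 250 against 100 µg/ml 0 of 29 genes passed, as did 0 of all genes (0%). At an unadjusted p under 0.05 there were 0 of 29, against 1.84% of all genes (0.985% higher and 0.859% lower). The mean was higher at 250 µg/ml for 19 of 29, against 54.4% of all genes. The median difference was 0.02, beside 0.01 over all genes. TIMM29 was higher without overlap at 250 µg/ml (3.32% of all genes were), with a difference of 0.24 ± 0.19, and AFG3L2 lower (2.86% were), with -0.22 ± 0.12. The widest difference was that of TIMM21, -0.39 ± 0.28, which was -0.72 without array 3 and -0.16 without array 2 at 100 µg/ml. For 27 of 29 genes the 95% interval lay within 2-fold (91.4% of all genes).

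Deviations of same-numbered arrays from their group means correlated between the doses over all genes, so differences were also taken within each number. Over the 29 genes alone those correlations were 0.53, -0.22 and 0.35 for numbers 1 to 3, so number 2 did not share that pattern. Of the 29 genes, 5 were higher at 250 µg/ml in all 3 numbers (17.2%, against 17.7% of all genes), and 2 were lower in all 3 (6.9%, against 13.6%). TIMM29 differed by 0.26, 0.22 and 0.25 in numbers 1 to 3, and TIMM22 by 0.23, 0.12 and 0.25. TOMM34 differed by 0.14, 0.16 and 0.07, HTRA2 by 0.06, 0.21 and 0.20, and SPG7 by 0.54, 0.12 and 0.04. Lower in each number were YME1L1, by -0.14, -0.27 and -0.20, and AFG3L2, by -0.03, -0.50 and -0.14. With the number as a block on the 6 treated arrays, a fit chosen after seeing the data, TIMM29 had the lowest adjusted p of the 29 genes, 0.37.

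**Figure D4:**
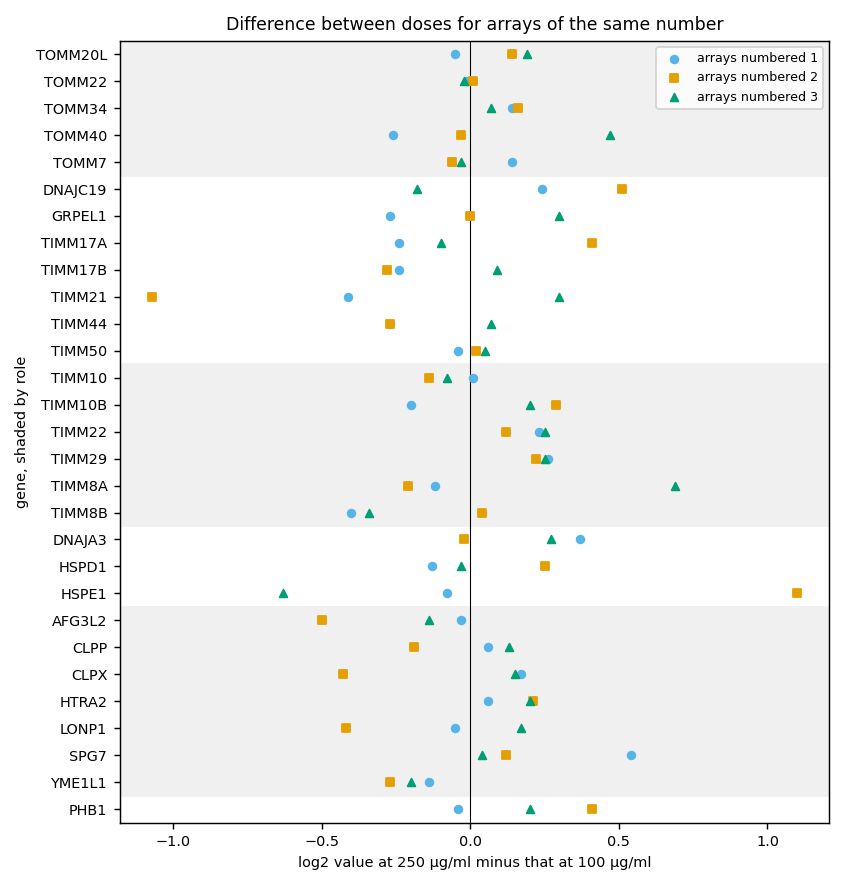
Horizontal positions give the log2 value at 250 µg/ml minus that at 100 µg/ml for arrays numbered 1 (circles), 2 (squares) and 3 (triangles), 1 gene per row. The 3 points of TIMM29 lie together between 0.22 and 0.26, while those of HSPE1 run from -0.63 to 1.10.

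The spread among vehicle arrays was wide for these genes. The median SD was 0.36 log2 units with vehicle, beside 0.21 over all genes, and 0.18 at 100 µg/ml and 0.18 at 250 µg/ml, beside 0.18 and 0.16. An SD above 0.5 was found for 8 of 29 genes with vehicle (14.2% of all genes), for 2 at 100 µg/ml (6.26%) and for 0 at 250 µg/ml (4.95%). Vehicle array 1 was the lowest of the 9 arrays for 18 of 29 genes (62.1%), against 17.5% of all genes. The mean of the 29 genes, relative to each gene's own average, was -0.35 on that array and between -0.02 and 0.10 on the other 8, while over all genes it was -0.07 on that array.

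By role, vehicle array 1 lay at -0.57 for the presequence translocase and motor, -0.32 for the matrix chaperones and -0.31 for the carrier pathway. It lay at -0.26 for the genes with TOMM symbols, -0.19 for the proteases and -0.70 for PHB1. The 3 matrix chaperone genes lay at -0.27 on vehicle array 3 as well, and HSPD1 had its highest vehicle value on vehicle array 1. Other nuclear genes of mitochondrial proteins were low on vehicle array 1 too. The means were -0.56 for 65 mitochondrial ribosomal protein genes and -0.50 for 26 complex I subunit genes, and it was the lowest array for 61.5% of each. Between vehicle arrays 2 and 3 the median gap was 0.26 for the 29 genes and 0.21 for all genes. What set vehicle array 1 apart was not tested.

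**Figure D5:**
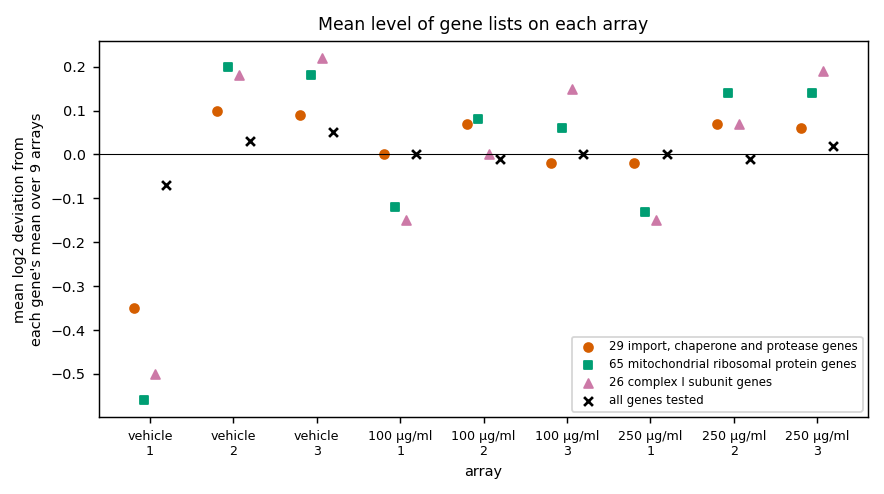
Points give the mean log2 deviation of 4 gene lists on each array, each gene taken relative to its own mean over the 9 arrays: 29 import, chaperone and protease genes, 65 mitochondrial ribosomal protein genes, 26 complex I subunit genes and all 14207 genes. On vehicle array 1 the first 3 lists lie at -0.35, -0.56 and -0.50 and all genes at -0.07.

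Counts of 0 were also found for other genes of the pathway, where 0.0633% of all genes passed at 100 µg/ml and 0.549% at 250 µg/ml. With shares that low, a count of 0 does not set lists of this size apart. Of 14 measured genes for outer membrane assembly, presequence cleavage and inner membrane insertion, 0 passed at either dose, with medians of 0.01 and -0.04. Of 10 other quality control genes 0 passed, with medians of -0.14 and 0.07. Among 11 measured regulators linked to mitochondrial stress and biogenesis 0 passed. ATF5, a transcription factor of the mitochondrial unfolded protein response, had 0.11 ± 0.20 and 0.44 ± 0.20 (adjusted p = 0.83 and 0.32), and ATF4 -0.25 ± 0.24 and -0.10 ± 0.24. DDIT3, which encodes CHOP, had -1.06 ± 0.48 and -1.15 ± 0.48 (adjusted p = 0.35 and 0.28). Its values were 4.74, 5.77 and 6.35 with vehicle, 3.97, 4.61 and 5.10 at 100 µg/ml, and 3.86, 4.42 and 5.13 at 250 µg/ml. They rose with the array number in every group, and vehicle array 1 lay below array 3 of both doses.

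HSF1, the heat shock transcription factor, had 0.55 ± 0.18 and 0.69 ± 0.18 (adjusted p = 0.26 and 0.12). NRF1, whose site letters recur in the start regions, had -0.10 ± 0.15 and 0.02 ± 0.15 (adjusted p = 0.8 and 0.96), a gene named after its values were seen. Of 13 measured cytosolic chaperone genes that respond to HSF1, 0 passed at either dose, beside 0.0633% and 0.549% of all genes. At an unadjusted p under 0.05 there were 4 higher and 1 lower at 100 µg/ml and 6 higher and 1 lower at 250 µg/ml, and their medians were 0.22 and 0.29. Over all genes 7% and 7.65% were higher and lower by that rule at 100 µg/ml, and 8.74% and 7.9% at 250 µg/ml. Whether the cytosolic and mitochondrial lists differ was not tested.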

How the data were processed

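Gene expression was measured on 9 exon arrays, 3 per group. The authors deposited log2 values, 1 per transcript-level probe set. RMA, Partek and hg18 are listed in the submitters' processing notes, without versions or settings. RMA normalizes arrays together, which can hide changes in total RNA. Changes of dim genes may be compressed in such values. No detection calls were used. The number of arrays limits the precision.

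The 17629 probe sets named 1 gene in 14378 cases, several in 2405 and none in 846. Symbols were updated by gene number through RefSeq (GRCh38.p14), where 28 probe sets with 1 gene had no match. The probe set with the highest mean was kept per gene. PHB is now PHB1. Array medians over probe sets lay between 4.42 and 4.59.

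Comparisons were fitted with limma 3.58.1 in R 4.3.3, with 1 mean per group, on all 9 arrays, Benjamini-Hochberg adjustment over 14207 genes and a threshold of 0.05. An exact permutation test of 3 against 3 arrays cannot go below 0.1 (two-sided), so none is given. The fit was also tested on simulated data, with 200 genes given known changes. The genes described, the lists and the rule for names were chosen with earlier results of these data known. The rule for names took a fixed list of 30 genes where measured, any gene past the threshold and the 4 largest changes each way in a comparison; the remaining measured genes are named to account for all 29. Alternatives covered scaling, dim genes, arrays in the fit, a replicate block, array weights, variance trend and probe set choice.

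Whether array numbers pair samples was checked from deviations from group means. Between the doses, same-numbered arrays had correlations of 0.6, 0.44 and 0.68, so the numbers were taken to pair both doses, from the data and not the labels. Against vehicle the correlations ran from -0.14 to 0.26, so no pairing was assumed.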

Additional observations from a re-analysis of the deposited data

How the results depend on the processing

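No alternative brought any of the 29 genes past the threshold at 100 µg/ml against vehicle or at 250 against 100 µg/ml. At 250 µg/ml against vehicle the count was 0 in every alternative but 1, and 0 to 1 with single arrays left out. The 1 was TOMM34 without vehicle array 3. The median change of the genes at 250 µg/ml ran from -0.09 without vehicle array 1 to 0.17 without vehicle array 3. With single arrays left out it ran from -0.05 to 0.20 at 100 µg/ml and from 0.00 to 0.09 between doses. The replicate block, with array number as a term, changed no call: it left 0 of 29 past the threshold in each comparison, with medians of 0.09, 0.08 and 0.02. Changes of single genes took the other sign in 23 of 434 combinations of gene and setting at 100 µg/ml, 30 of 434 at 250 µg/ml and 48 of 463 between doses. None of these genes was past the threshold in either fit, and the largest such value was 0.39 in size. Leaving out vehicle array 1 turned the sign of 9 genes at 100 µg/ml and 6 at 250 µg/ml, more than any other setting. Averaging probe sets left the changes of the 29 genes as they were and moved only their adjusted p, since each had 1 probe set naming it alone. Further probe sets that also name another gene, as for PHB1 and TOMM7, were not used. That setting therefore did not check the choice of probe set for these genes. Changes under 2-fold were not simulated, and low values do not tell whether a gene was expressed.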
